A study of Rattus norvegicus with 18 samples.

Results

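The brain renin-angiotensin system was followed through 9 genes in the hypothalamus of the rat. They are Agt, Atp6ap2, Ace, Enpep, Lnpep, Agtr1a, Agtr1b, Agtr2 and Mas1, and they were taken by name with every probe whose transcript accession maps to them. These 9 genes, of 16665 named on the array, are represented by 15 probes. Of these, 14 probes for 8 genes were bright enough to test, and the probe of Agtr2 was not.

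All 18 rats were male Wistar rats, labelled as 9 weeks old, and each gave 1 array of total RNA from the dissected hypothalamus. The design text gives an age of 5 weeks for the groups as they were formed. The 6 control rats were left without restraint and without a running wheel. Rats of the stress group (n = 6) were restrained for 1 to 1.5 h on 5 days of each week for 3 weeks. Rats of the stress with exercise group (n = 6) had that restraint and free access to a wheel for 4 weeks, of which 1 week came before restraint. All rats fed and drank freely and were killed under ether, and no group here had a wheel without restraint.

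Angiotensinogen is cleaved to angiotensin I, which angiotensin-converting enzyme shortens to angiotensin II. Aminopeptidase A, the product of Enpep, turns angiotensin II into angiotensin III, and the product of Lnpep binds angiotensin IV. Angiotensin II acts through the type 1 receptor, which rodents encode in a pair of genes, Agtr1a and Agtr1b, and through the type 2 receptor, while Mas1 encodes the receptor for angiotensin-(1-7). In the hypothalamus the system is known for its part in drinking, vasopressin release, sympathetic outflow and the response to stress. The title of the series puts the question as one of exercise, brain and bone marrow in hypertension brought on by stress.

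Agtr1a and Agtr1b are close relatives, and Agtr1b was the only member that passed in any comparison below, so the promoters of the pair are shown side by side, 250 bases each. Both come from RefSeq on assembly GRCr8, are read 5′ to 3′ on the gene's own (minus) strand and end at the base before the start that the RefSeq promoter table uses. Capitals mark the letters TATAAA, searched on the gene's strand.
Agtr1a (chr17:34435433-34435682, minus strand): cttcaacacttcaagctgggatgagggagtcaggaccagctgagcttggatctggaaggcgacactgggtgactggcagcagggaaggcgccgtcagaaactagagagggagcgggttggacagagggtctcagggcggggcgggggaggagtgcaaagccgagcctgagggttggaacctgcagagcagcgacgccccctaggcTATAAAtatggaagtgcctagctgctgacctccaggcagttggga
Agtr1b (chr2:104849263-104849512, minus strand): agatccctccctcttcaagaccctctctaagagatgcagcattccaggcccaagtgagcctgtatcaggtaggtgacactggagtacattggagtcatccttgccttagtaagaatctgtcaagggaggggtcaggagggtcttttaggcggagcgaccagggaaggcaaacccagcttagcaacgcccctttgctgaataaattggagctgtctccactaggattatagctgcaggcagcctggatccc
The Agtr1a window holds TATAAA with its first base 45 bases before the start (position -45), and the last 91 bases of this window, these letters among them, lie inside the span that the same annotation gives the gene over all its transcripts. The Agtr1b window lies outside its gene, and it does not hold these letters. A promoter entry was matched for 8 of the 9 members, and 1 of these 8 holds TATAAA, against 8.06% of 33469 rat promoter windows of the same length. The letters AGAACA, known from glucocorticoid receptor sites and read on both strands (TGTTCT on the other), are in 0 of the 8 and in 17.5% of all windows. A run of letters is a description of the window, not a site in use.

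Levels below are log2 of the probe's background-corrected intensity minus the array's own 75th percentile, so that 0 is that percentile and -1 is a value 1 log2 step under it. Levels of different probes are not compared. Testing required that a probe stand well above background in 5 or more of the 6 rats of some group. A difference passed when limma's Benjamini-Hochberg adjusted p over all 31293 tested probes was under 0.05. Of all 45598 probes, 63.6% to 77.8% stood well above background per array. The intensity at the 75th percentile lay between 423 and 528. All 11 hypothalamic neuron markers looked up, Avp, Oxt and Crh among them, stood well above background on all 18 arrays. Each array is 1 rat, so the spread between rats cannot be told from that between arrays. SE below is limma's standard error of a difference, and SD is the spread between arrays.

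Stress rats 5 and 6 are shown apart from stress rats 1 to 4. The file headers put the arrays on 5 slides and 2 scan days. Slides 1 to 3 hold the 6 control arrays and stress 1 to 4, and slides 4 and 5 hold stress 5 and 6 with all 6 arrays of stress with exercise. Stress 1 to 4 were scanned on day 2 and stress 5 and 6 on day 1, so within the stress group slide set and scan day coincide. Across 31293 probes, 17.3% differed between stress 5 and 6 and stress 1 to 4, which had the same treatment (limma, adjusted p under 0.05). In the fit with group alone, this difference is part of the spread from which SE is taken. The differences of the 8 tested members with this slide set as a term in the fit are therefore given in the text or in the plot of member differences. With that term, stress with exercise is set against stress 5 and 6 alone (6 against 2 rats). Stress 1 to 4 alone are then set against control (4 against 6 rats). The comparison of stress with exercise and control lies wholly across the slide sets. In bulk tissue, fewer cells of a type and less RNA per cell cannot be told apart.

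**Figure D1:**
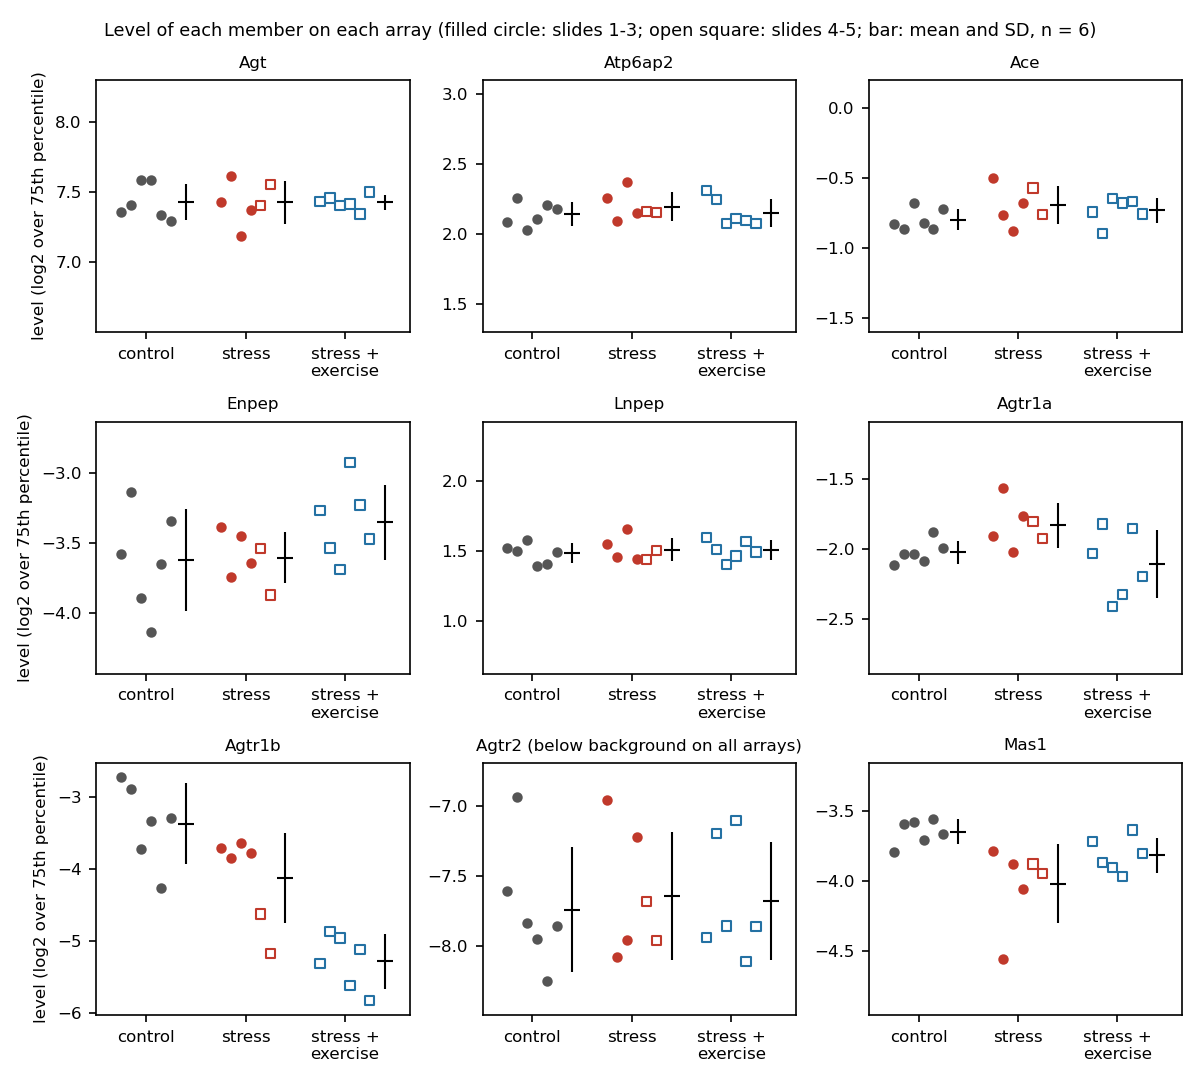
Level (log2 over the array's 75th percentile) of each of the 9 members on each array, by group, with the brightest probe of a gene, the mean and the SD (n = 6). Filled circles are arrays of slides 1 to 3 and open squares those of slides 4 and 5. All groups overlap for every member, except control and stress with exercise for Agtr1b, whose open squares lie between -5.83 and -4.63, below all filled circles.

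Agt encodes angiotensinogen, the precursor of all angiotensin peptides, which astrocytes make in the brain. Its level ran from 7.30 to 7.59 in control rats (median 7.39), from 7.19 to 7.62 in stress (median 7.42) and from 7.34 to 7.50 in stress with exercise (median 7.43). The groups overlapped almost wholly, and stress 5 and 6, at 7.40 and 7.56, lay among stress 1 to 4. Stress differed from control by -0.0021 (SE 0.07, 95% interval -0.15 to 0.14; adjusted p = 0.994 with limma). Stress with exercise differed from stress by -0.00043 (SE 0.07, 95% interval -0.14 to 0.14; limma adjusted p = 0.998). These intervals leave room for a shift of up to about 0.15 on the log2 scale in either direction. Once the slide set was a term the differences were -0.03 and -0.05, with intervals of -0.19 to 0.13 and -0.26 to 0.15. The 9 astrocyte markers summed to a level of 8.18 to 8.33 in control, 8.17 to 8.39 in stress and 8.18 to 8.27 in stress with exercise.

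Atp6ap2 encodes the prorenin receptor, which is also an accessory subunit of the vacuolar proton pump. Its brighter probe lay between 2.03 and 2.26 in control, 2.09 and 2.38 in stress and 2.08 and 2.31 in stress with exercise. All 3 groups overlapped, and stress 5 and 6 both stood at 2.16. The differences were 0.05 for stress against control and -0.04 for stress with exercise against stress (SE 0.06 each), with limma adjusted p of 0.724 and 0.674. The other probe of Atp6ap2 gave 0.02 and -0.06 (SE 0.07).

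The enzymes among the members were Ace, Enpep and Lnpep, and none of their 8 probes passed in any comparison between groups, where 0% (stress against control), 3.74% (stress with exercise against stress) and 27.2% (stress with exercise against control) of all tested probes passed. Ace encodes angiotensin-converting enzyme, known in brain from choroid plexus, vessels and the striatal projection. Its brighter probe ran from -0.86 to -0.68 in control (median -0.83), from -0.88 to -0.50 in stress (median -0.72) and from -0.90 to -0.65 in stress with exercise (median -0.71). Stress was 0.10 above control (SE 0.06, 95% interval -0.03 to 0.24; limma adjusted p = 0.498), with 5 of 6 stress rats above the control mean. Stress with exercise differed from stress by -0.04 (SE 0.06; limma adjusted p = 0.739). The dimmer probe of Ace gave 0.0024 and 0.07 (SE 0.08), so the 2 probes differ in sign in the second comparison.

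Striatal and choroid plexus markers are set beside Ace because both tissues carry the enzyme. Of 9 striatal markers, 0 passed between stress and control, 1 rose (Pde10a) between stress with exercise and stress, where 1.19% of all probes rose, and 5 rose between stress with exercise and control, where 13.4% did. Their summed level was 4.33 to 4.41 in control, 4.37 to 4.63 in stress and 4.46 to 4.89 in stress with exercise. Of 9 choroid plexus markers, 1 fell (Aqp1) between stress with exercise and control, where 13.8% of all probes fell. Their summed level ran from 2.53 to 6.84 in control, 1.81 to 7.56 in stress and 2.08 to 3.04 in stress with exercise. None of these 18 markers stayed below background on all arrays. The part of either tissue in the values of Ace was not tested.

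Enpep encodes aminopeptidase A, found on the mural cells of brain vessels. It ran from -4.14 to -3.13 in control (median -3.61), from -3.87 to -3.39 in stress (median -3.59) and from -3.69 to -2.93 in stress with exercise (median -3.37). The highest value was that of an exercised rat and the next that of a control rat, and the groups overlapped. Stress with exercise was 0.25 above stress (SE 0.16, 95% interval -0.07 to 0.58; limma adjusted p = 0.331). Of 6 exercised rats 5 exceeded the stress mean. Against control it was 0.27 above (SE 0.16, 95% interval -0.06 to 0.60; limma adjusted p = 0.217). Adding the slide set as a term made the first difference 0.35 (SE 0.22; limma adjusted p = 0.865). Of 9 mural cell markers, 1 rose (Abcc9) between stress with exercise and stress, against 1.19% of all probes. Between stress with exercise and control 2 rose (Rgs5 and Cspg4) and 1 fell (Acta2), against 13.4% and 13.8%. Cspg4 and Acta2 also passed between stress 5 and 6 and stress 1 to 4, 1 higher and 1 lower, against 7.14% and 10.2%. The summed level of the 9 markers was 3.29 to 3.47 in control, 3.20 to 3.51 in stress and 3.48 to 3.61 in stress with exercise. Cspg4, at 2.10 to 2.57, was the brightest of them. None was below background on all arrays, and the part of these markers in the values of Enpep was not tested.

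Lnpep encodes the insulin-regulated aminopeptidase, which also cleaves vasopressin and oxytocin. It has 5 probes here, and the brightest ran from 1.39 to 1.58 in control, 1.44 to 1.65 in stress and 1.40 to 1.59 in stress with exercise. These ranges nearly coincide. The differences of this probe were 0.03 for stress against control and -0.0028 for stress with exercise against stress (SE 0.05 each), with 95% intervals of -0.07 to 0.12 and -0.10 to 0.10. The other 4 probes lay between -0.08 and 0.05 in the first comparison and between 0.04 and 0.19 in the second, and none passed. Between stress 5 and 6 and stress 1 to 4 these 4 probes differed by 0.17 to 0.35 and the brightest by -0.06, and none of the 5 passed (limma adjusted p from 0.0654 to 0.635).

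Agtr1b was the only member that passed. It encodes the type 1b angiotensin receptor, which in rats is known best from the anterior pituitary and the adrenal. Its level in control rats ran from -4.26 to -2.73, with a median of -3.31. Stress 1 to 4 stood at -3.71, -3.84, -3.64 and -3.78, and stress 5 and 6 stood at -4.63 and -5.18. Stress with exercise ran from -5.83 to -4.87, with a median of -5.22. Control rats and stress 1 to 4 overlapped, stress 5 lay above all exercised rats, and stress 6 lay within their range.

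The group means of Agtr1b were -3.37 ± 0.56 in control, -4.13 ± 0.63 in stress and -5.29 ± 0.38 in stress with exercise (SD, n = 6 each). The probe met the filter only through control and stress, the groups where it was higher and well above background on all 12 arrays. It was well above background on 3 of 6 arrays of stress with exercise. Both the size of a difference from that group and a pass in such a comparison are therefore uncertain. Stress with exercise was lower than stress, at a difference of -1.16 (SE 0.29, 95% interval -1.77 to -0.54; limma adjusted p = 0.0420), and 6 of 6 exercised rats lay below the stress mean. The call was lost on leaving out any 1 array other than stress 5 or stress 6 (highest limma adjusted p = 0.112), and with slide as a random block the difference was -0.73 (limma adjusted p = 0.430). Agtr1b was the 1 of 8 tested members to pass, while 3.74% of all tested probes passed in that comparison and 2.55% passed as lower. Against control the difference was -1.92 (SE 0.29, 95% interval -2.53 to -1.30; limma adjusted p = 0.000607). The groups did not overlap, as for 5639 of 31293 tested probes, and again 1 of 8 members passed where 27.2% of probes did, 13.8% lower. Stress itself was 0.76 lower than control on the log2 scale (difference -0.76, SE 0.29; limma adjusted p = 0.353) and did not pass.

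The same gene differed inside the stress group. Stress 5 and 6 were lower in Agtr1b than stress 1 to 4 by 1.16 log2 units (difference -1.16, SE 0.34, 4 against 2 rats; limma adjusted p = 0.0289), without overlap. It was the 1 member of 8 that passed there, where 17.3% of probes passed, 10.2% lower, and 12491 of 31293 had no overlap. With the slide set as a term, stress with exercise differed from stress, here stress 5 and 6 alone, by -0.38 (SE 0.32, 95% interval -1.07 to 0.31; limma adjusted p = 0.913). Against control it then differed by -0.76 (SE 0.41, 95% interval -1.63 to 0.12; limma adjusted p = 0.618), and stress against control gave -0.37 (SE 0.26; limma adjusted p = 0.716). In these fits 0 of 8 members passed, against 0.0160%, 0.0128% and 0.00320% of all tested probes for the 3 comparisons in that order. No slide set holds both control and exercised rats, and the stress group alone lies on both.

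**Figure D2:**
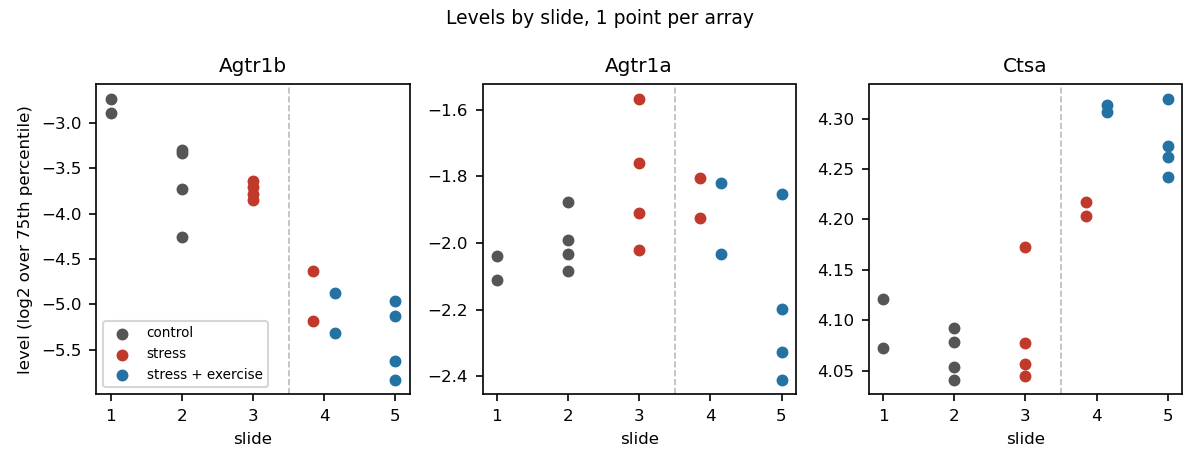
Level (log2 over the array's 75th percentile) of Agtr1b, Agtr1a and Ctsa, another gene of the system, on each array by slide, coloured by group, with a dashed line between slides 3 and 4. The 2 stress arrays of slide 4 lie below the 4 stress arrays of slide 3 for Agtr1b, within their range for Agtr1a and above them, under all exercised rats, for Ctsa.

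Over all arrays the scan days cut across the slide sets, and they gave other sizes. Within the stress group slide set and scan day coincide, and that group alone sets the slide set term. The difference between stress 5 and 6 and stress 1 to 4, and the fits with that term, thus cannot tell slide set from scan day. Scan day 1 holds slides 2 and 4, with 4 control, 2 stress and 2 exercised rats. Within it Agtr1b differed by -0.19 between stress with exercise and stress (limma adjusted p = 0.852) and by -1.25 between stress and control (limma adjusted p = 0.0465). Scan day 2 holds slides 1, 3 and 5, with 2 control, 4 stress and 4 exercised rats. Within it the same differences were -1.64 (limma adjusted p = 0.000326) and -0.94 (limma adjusted p = 0.201). Values within a scan day elsewhere rest on the same few rats. In the 2 of these that passed, the groups compared lay on different slide sets. Stress with exercise against control also passed within each scan day, and it lies wholly across the slide sets. Leaving out stress 5 and 6 moved the difference between stress with exercise and stress to -1.54 (limma adjusted p = 0.000406).

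The signal of Agtr1b was dim. Intensity was 26 to 68.0 in control, 29.5 to 42.3 in stress 1 to 4 and 7.69 to 14.5 in stress with exercise, while stress 5 and 6 gave 18.5 and 12.9. With normexp on the median signals, an alternative that changes the signal, the background correction and the offset together, the difference between stress with exercise and stress was -0.22 (limma adjusted p = 0.152), and that between stress with exercise and control was -0.43 (limma adjusted p = 0.00244). The offset of 50 makes log2 differences of dim probes smaller, so these sizes cannot be set against those above.

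Pituitary markers are set beside Agtr1b, since a dissected hypothalamus may carry pituitary or pars tuberalis tissue. Of 11 markers 10 have a probe and 6 were tested. None of the 6 passed between stress and control or between stress with exercise and stress. Pitx1 and Pou1f1 fell between stress with exercise and control, by 0.55 and 0.90 on the log2 scale (limma adjusted p = 0.0169 and 0.00247), where 13.8% of all probes fell. Cga, Lhb and Pitx1 were lower in stress 5 and 6 than in stress 1 to 4, against 10.2% of all probes, and Prl and Gnrhr were below background on all 18 arrays. The summed level of the 10 markers, which includes Pomc, a gene that hypothalamic neurons also use, was 3.34 to 5.41 in control, 5.12 to 6.23 in stress 1 to 4 and 3.35 to 4.90 in stress with exercise, with stress 5 and 6 at 3.53 and 3.58. Pitx1, a transcription factor of the pituitary, ran from 0.20 to 0.57 in control rats and reached 0.41 to 0.59 in stress rats 1 to 4. Rats 5 and 6 of that group stood at -0.41 and -0.36, and the exercised rats ran from -0.36 to 0.0084. Pitx1 was thus lower on every array of slides 4 and 5 than on any of slides 1 to 3, as Agtr1b was. It was the only pituitary marker with this pattern, and the others, Lhb, Pomc and Fshb among them, overlapped between the slide sets. The share of all probes parted in this way was not counted. The first principal component of the tested probes, their main axis of variation (31.8% of variance), also parted the slide sets. It lay between -32.0 and -20.7 on slides 1 to 3 and between 25.7 and 39.2 on slides 4 and 5. Parting by slide set is thus not particular to Agtr1b and Pitx1. Cga, the shared subunit of pituitary glycoprotein hormones, ran from -5.70 to 4.70 in control, from 4.29 to 5.48 in stress 1 to 4 and from -5.50 to 3.91 in stress with exercise, with stress 5 and 6 at -6.52 and -5.50. The part of pituitary tissue in the values of Agtr1b was not tested.

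Agtr1a is known as the main type 1 receptor gene of the rodent brain. It ran from -2.11 to -1.88 in control, with a median of -2.04. Stress 1 to 4 stood at -1.91, -1.57, -2.02 and -1.76, and stress 5 and 6 at -1.80 and -1.92. Stress with exercise ran from -2.41 to -1.82, with a median of -2.12. Each of the 6 stress rats exceeded the control mean, and 5 of 6 exercised rats were under the stress mean, though all groups overlapped.

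Stress was 0.19 above control in Agtr1a (SE 0.10, 95% interval -0.02 to 0.40; limma adjusted p = 0.444). Stress with exercise was at -0.28 against stress (SE 0.10, 95% interval -0.48 to -0.07; unadjusted p = 0.0122, limma adjusted p = 0.102). Neither passed. With the slide set as a term the differences were 0.21 (SE 0.11) and -0.24 (SE 0.14), with limma adjusted p of 0.618 and 0.853. The second was -0.06 within scan day 1, where both groups lie on slide 4 (2 rats each), and -0.38 within scan day 2 (4 rats each), with limma adjusted p of 0.825 and 0.0687. It was -0.18 with slide as a random block (limma adjusted p = 0.601). Stress 5 and 6 differed from stress 1 to 4 by -0.05 (SE 0.15; limma adjusted p = 0.864).

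Agtr2, the type 2 receptor gene, was not well above background on any of the 18 arrays. Its intensity lay between 1.56 and 3.65 on all arrays, against a 75th percentile of 423 to 528. Values at this brightness have no order, and no fold or test is given.

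Mas1 encodes the receptor for angiotensin-(1-7), a peptide that opposes many actions of angiotensin II. It ran from -3.79 to -3.55 in control (median -3.63). Stress 1 to 4 stood at -3.79, -4.56, -3.88 and -4.05, and stress 5 and 6 at -3.88 and -3.94. Stress with exercise ran from -3.97 to -3.63 (median -3.83). All 6 stress rats lay below the control mean, and the lowest, stress 2, lay far under the other 5.

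Stress was at -0.37 against control in Mas1 (SE 0.10, 95% interval -0.59 to -0.15; unadjusted p = 0.00225), which did not pass over all probes (limma adjusted p = 0.266). Without stress 2 the difference was -0.26 (limma adjusted p = 0.211). It was -0.42 with the slide set as a term (SE 0.11; limma adjusted p = 0.244). Within scan day 1, with 2 stress and 4 control rats on different slide sets, it was -0.29 (limma adjusted p = 0.0452). With normexp on the median signals it was -0.09 (limma adjusted p = 0.501), but the offset of 50 makes log2 differences at this brightness smaller. Stress with exercise stood between the other groups, at 0.20 above stress (SE 0.10; limma adjusted p = 0.239) and at -0.17 against control (SE 0.10; limma adjusted p = 0.247). The probe was well above background on all arrays, at intensities of 17.99 to 42.5.

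Over the 8 tested members, 0 passed between stress and control with limma, where 0% of all tested probes passed. At an unadjusted p under 0.05 there were 2, Mas1 and Agtr1b, against 12.0% of all probes. Between stress with exercise and stress there were also 2, Agtr1b and Agtr1a, against 24.5%. The median difference over the 8 members was 0.02 for stress against control, -0.02 for stress with exercise against stress and 0.0037 for stress with exercise against control. Over all tested probes these medians were -0.0050, 0.02 and 0.02. Over the brightest tested probes of 13051 named genes, chosen as for the members, they were 0.02, 0.03 and 0.05. The spread between rats within a group and slide set was 0.07 to 0.18 (SD) for 12 of the 14 tested probes, 0.29 for Enpep and 0.42 for Agtr1b. Any pair of the comparisons shares 1 group of rats.

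**Figure D3:**
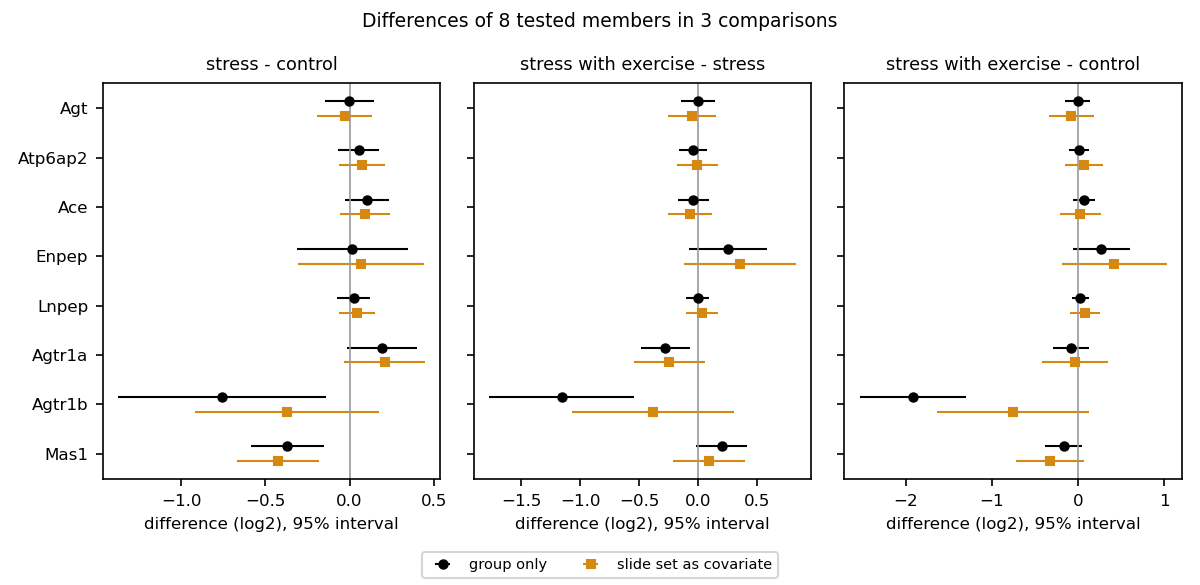
Difference (log2) of each of the 8 tested members in the 3 comparisons, with its 95% interval, from a fit with group alone (black circles) and with the slide set as a term (orange squares). Each panel has its own horizontal scale. Agtr1b, at -1.16 and -1.92 in the comparisons with exercise, moves to -0.38 and -0.76 with the slide set, and intervals of the other members include 0 in both fits except Mas1 in stress against control and, with group alone, Agtr1a in stress with exercise against stress.

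Of 31 other genes of the system, 30 have a probe and 24 were tested, and 0 of 24 passed between stress and control with limma (2 at an unadjusted p under 0.05). The smallest p-values there were those of Prcp, an enzyme that cuts angiotensin II and III (difference 0.21, SE 0.07), Agtrap, which binds the type 1 receptor (-0.11, SE 0.05), and Anpep, aminopeptidase N, which degrades angiotensin III (-0.41, SE 0.21). Their limma adjusted p were 0.318, 0.394 and 0.443, and with the slide set as a term their differences were 0.23, -0.12 and -0.38. Not tested for want of signal were Cma1, Ctsg, Cpa3, Mrgprd, Kng1 and Bdkrb1.

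Between stress with exercise and stress, 1 of 24 rose and 0 fell, against 1.19% and 2.55% of all probes. The gene that rose was Ctsa, a lysosomal carboxypeptidase that can act on angiotensin I, by 0.16 (SE 0.04; limma adjusted p = 0.0391). It was at 4.04 to 4.12 in control, 4.17, 4.08, 4.04 and 4.06 in stress 1 to 4, 4.20 and 4.22 for stress 5 and 6, and 4.24 to 4.32 in stress with exercise. Every exercised rat lay above every stress rat, and 455 of 31293 tested probes (1.45%) had no overlap between these groups. With the slide set as a term the difference was 0.08 (SE 0.04; limma adjusted p = 0.829). Grk2, a kinase that turns off activated receptors, had the next smallest p at 0.20 (SE 0.06; limma adjusted p = 0.0826), followed by Rnpep, aminopeptidase B, at -0.15 (SE 0.05; limma adjusted p = 0.0858), and neither passed. With the slide set as a term these were 0.12 and -0.05. Between stress with exercise and control 2 of 24 rose, Ctsa by 0.21 (SE 0.04) and Arrb2, encoding the receptor adaptor β-arrestin, by 0.22 (SE 0.06), and 0 fell, against 13.4% of all probes higher and 13.8% lower. With the slide set as a term the difference of Ctsa was 0.09 (limma adjusted p = 0.653), and that of Arrb2 changed sign, to -0.07 (SE 0.07; limma adjusted p = 0.850). Grk2 was next there without that term, at 0.16 (SE 0.06; limma adjusted p = 0.0691). Between stress 5 and 6 and stress 1 to 4, 3 were higher (Arrb2, by 0.28, Atp6ap1 and Gnaq) and 0 lower, against 7.14% and 10.2% of all probes, and 0 of 24 passed in any of the 3 comparisons with the slide set as a term.

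**Figure D4:**
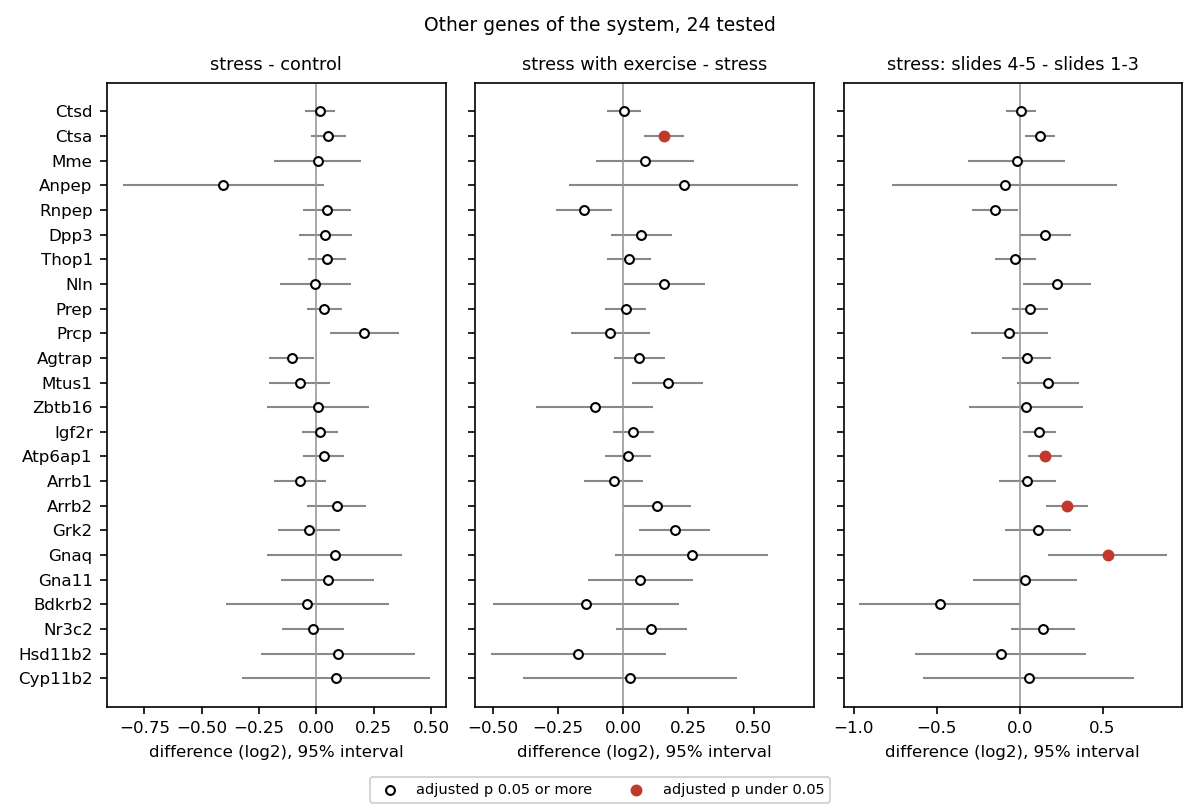
Difference (log2) of 24 other genes of the system with its 95% interval, for stress against control, stress with exercise against stress, and stress arrays of slides 4 and 5 against those of slides 1 to 3. Red points passed at an adjusted p under 0.05. No gene passed in the first panel, Ctsa passed in the second, at 0.16, and Atp6ap1, Arrb2 and Gnaq passed in the third.

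For each tested member the genes whose levels followed it most closely over the 18 arrays were looked up, with the levels taken as deviations from the mean of each group on each slide set and scaled to an SD of 1. Likeness is the root mean square difference of 2 such profiles, whose median over 12980 genes lay between 1.35 and 1.41. For Agt the closest genes were S100b, at 0.28, Rpl12 and Gnb2. For Atp6ap2 they were Plxna2, at 0.25, Mcrip1 and Ehd3. Closest to Enpep were Vtn, at 0.54, Col18a1 and Slc2a4, and closest to Ace were Kif13a, at 0.57, Zbtb46 and Coq2. Among the receptors, Agtr1a had Mc3r, at 0.56, Isg20l2 and Pgm2, while Agtr1b had Defb20, at 0.60, Slc25a22 and Nxpe3. Mas1 had Smc3, at 0.53, Cert1 and Rbm43, and Lnpep had Tcp1, at 0.67, Tmem126a and Pnrc2. Agt and Atp6ap2 thus had a nearest gene at less than 0.30 and the other 6 members did not. All profiles share the arrays and their scaling, and the values are a description with no test.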

How the data were processed

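RNA of 18 rats was measured on 1-colour Agilent arrays (Cy3). The deposited intensity is the processed signal of each spot, already background-subtracted and spatially detrended by Agilent Feature Extraction, version 12.1.0.3 per the file headers and 9.1 per the submitters' processing notes. The authors' value table holds the same intensity times 1 constant per array. The labels give unequal RNA amounts for labelling, and no value here uses them. Members and lists were chosen with earlier results of these data known.

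From these values log2 intensity minus each array's 75th percentile over probes that are not controls was computed, without outlier spots and with spots of a probe averaged. Of 45598 probes, 21220 matched 1 symbol through their accession in a RefSeq table of assembly GRCr8, 0 matched several and 24378 none. The array was designed on another build, so no probe positions are given. Probes well above background on at least 5 of 6 arrays of at least 1 group were kept (31293), and the brightest tested probe stands for a gene.

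Comparisons used limma 3.58.1 in R 4.3.3 (lmFit and eBayes, two-sided, Benjamini-Hochberg over all tested probes) over the 18 arrays, with the 3 group means as the only terms. The fit was tested on simulated data without differences between slides, slide sets or scan days, so that test does not cover such differences. Named genes were all members, other genes of the system that passed, the 3 with the smallest p per comparison and the 3 genes most like each member. The markers were named after their values were seen, and 2 of the other genes listed for the system are not reported here. Alternatives covered background correction, scaling, filters, slide set, slide, scan day, replicate number as a block, single arrays left out, the mean over a gene's probes and the authors' value table. The files used hold no mean signal, so the planned normexp correction (offset 50) was run on the median signals of spot and background. The number of arrays limits the precision.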

Additional observations from a re-analysis of the deposited data

Results flagged for a closer look

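Among 66 groups of 6 arrays (15 probes of members and the probes of 7 other named genes), 3 held an array whose gap to its nearest neighbour was large against the group's range (above Dixon's 95% critical value); chance alone passes about 1 group in 20. Mas1 was at -4.56 in stress 2, against -4.05 to -3.79 in the other 5 stress rats. The second probe of Lnpep (A_44_P1100514) was at 1.36 in exercised rat 2, against 1.23 to 1.27 in the other exercised rats. The second probe of Atp6ap2 (A_44_P1160858) was at 2.35 in stress 3, against 1.86 to 2.04 in the other stress rats, and the brighter probe of Atp6ap2 was also highest there, at 2.38.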

How the results depend on the processing

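Agtr1b kept its sign under every alternative that tested it, but its calls did not hold under all of them. The count of members that passed between stress with exercise and stress was 1 and became 0 with normexp, without a filter on dim probes, with probes above background on all arrays (Agtr1b is then not tested), with the slide set as a covariate, with slide as a random block (difference -0.73, limma adjusted p = 0.430), within slides 4 and 5, within scan day 1 and with the replicate block (limma adjusted p = 0.0658). Leaving out single arrays gave 0 to 1, with 1 only without stress 5 or stress 6 (limma adjusted p 0.00478 to 0.112), so the call was lost without any other single array. Between stress with exercise and control the count of 1 became 0 with probes above background on all arrays and when the slide set was a covariate, and stayed 1 without each array. Between stress and control the count of 0 became 2 within scan day 1 (Agtr1b and Mas1). The causes of these changes were not tested. Rats of the same number correlated at -0.25 to 0.19, so the numbers were not taken as pairs, and the replicate block changed no other call.

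Among the other members, 36 differences changed sign outside single-array removal, the largest at 0.20 in size, and none passed. Stress against control: Agt was 0.0038 with normexp, 0.0026 without scaling, 0.017 with scan day as a block, 0.012 with slide as a random block, and 0.029 and 0.016 within scan days 1 and 2. Enpep was -0.017 with normexp, -0.052 with scan day, -0.035 with slide and -0.20 within scan day 2. Stress with exercise against stress: Agt was 0.0023 with quantile scaling and with the authors' value table, 0.0015 with the percentile over probes above background on all arrays, 0.016 within scan day 2 and 0.026 without stress 5 and 6. Lnpep was 0.025 with normexp, 0.034 with the slide set and within slides 4 and 5, 0.035 with slide, 0.083 within scan day 1 and 0.081 over all its probes. Atp6ap2 was 0.029 with slide and 0.12 within scan day 1, and Ace 0.019 within scan day 2 and 0.015 over its probes. Stress with exercise against control: Agt was 0.017 with scan day and 0.032 within scan day 2, Mas1 was 0.0041 with normexp, Ace -0.048 and Agtr1a 0.070 within scan day 1. Atp6ap2 was -0.015 with quantile scaling, -0.045 without scaling, -0.081 within scan day 2 and -0.014 over its probes, and Lnpep -0.033 without scaling and -0.030 within scan day 2. Without single arrays the ranges that crossed 0 were, for stress against control, -0.040 to 0.046 for Agt, -0.086 to 0.11 for Enpep and -0.0039 to 0.045 for Lnpep. For stress with exercise against stress they were -0.049 to 0.038 for Agt and -0.021 to 0.026 for Lnpep, and against control -0.029 to 0.029 for Agt and -0.022 to 0.032 for Atp6ap2. No slide set holds control and exercised rats, so that comparison has no value within a slide set.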
